A study of Mus musculus with 4 samples.

Results

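Ppp1r14c and Creb3l3 are 2 genes of mouse chromosome 10 whose RNA was higher in the gastric than in the pancreatico-duodenal lymph node on 3 arrays and nearly level on the remaining one, that of mouse 2. They were selected on this pattern of ratios, so their ratios are given as a description and carry no test. Of 41174 array probes, 3 matched a transcript of either gene: A_51_P239386 and A_51_P124741 for Ppp1r14c, and A_51_P518001 for Creb3l3. Of these, A_51_P239386 and A_51_P518001 passed the filter on dim probes and stood among the 21321 features tested.

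The study took both pancreas-draining nodes from each of 4 female mice, with no treatment named, of the NOD strain, which develops autoimmune diabetes spontaneously, at the age of 12 weeks. The gastric node lies to the left of the pancreas and its RNA was labelled with Cy5, whereas the pancreatico-duodenal node lies to the right and its RNA was labelled with Cy3. One array was hybridised per mouse, all 4 on 1 slide, and the dyes were not exchanged, so dye and node cannot be told apart. RNA came from whole nodes, in which fewer cells of a type and less RNA per cell cannot be told apart. Every ratio below is gastric over pancreatico-duodenal. Probes well above background made up 67.1% to 71.4% of all probes in the gastric channel and 59.6% to 62.6% in the pancreatico-duodenal channel, and no spot of either gene was saturated. All 11 T cell markers and all 11 B cell markers on the array passed the filter on dim probes.

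Ppp1r14c encodes KEPI, a small protein of the PPP1R14 family. Protein kinase C and related kinases phosphorylate these proteins and turn them into strong inhibitors of protein phosphatase 1, which keeps substrates such as myosin light chain phosphorylated. KEPI is best known from brain and muscle. Creb3l3 encodes CREB-H, a transcription factor anchored in the membrane of the endoplasmic reticulum and best known from liver and small intestine. It is cut loose in the Golgi by the site-1 and site-2 proteases, enters the nucleus and drives genes of lipid and glucose metabolism and of the acute phase response.

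Ppp1r14c and Creb3l3 shared a pattern across the arrays, so the promoter windows of both genes are shown, as RefSeq gives them on GRCm38.p6. Each window runs from 250 bases before to 50 after a transcript's start and is written 5′ to 3′ on the gene's strand. Capitals mark matches to a searched motif on either strand. Ppp1r14c has 1 window, at chr10:3365900-3366199 on the plus strand, with a GC content of 52%. Creb3l3 has 2 windows on the minus strand. The first is chr10:81098823-81099122 with 53% GC, and the second is chr10:81092542-81092841 with 57.7% GC. The median over 32851 windows of 27025 genes was 52.7%.
Ppp1r14c: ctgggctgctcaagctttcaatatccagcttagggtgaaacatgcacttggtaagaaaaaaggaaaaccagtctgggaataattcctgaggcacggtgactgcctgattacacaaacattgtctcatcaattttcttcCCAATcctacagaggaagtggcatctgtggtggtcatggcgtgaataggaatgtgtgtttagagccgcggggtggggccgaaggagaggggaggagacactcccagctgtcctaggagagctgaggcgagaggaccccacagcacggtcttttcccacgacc
Creb3l3 first window: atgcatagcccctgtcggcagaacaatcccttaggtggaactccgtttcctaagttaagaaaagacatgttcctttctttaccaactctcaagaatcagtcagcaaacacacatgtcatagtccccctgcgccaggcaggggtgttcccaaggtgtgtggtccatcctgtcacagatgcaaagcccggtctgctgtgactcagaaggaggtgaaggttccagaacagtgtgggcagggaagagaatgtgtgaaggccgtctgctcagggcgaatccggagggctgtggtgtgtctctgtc
Creb3l3 second window: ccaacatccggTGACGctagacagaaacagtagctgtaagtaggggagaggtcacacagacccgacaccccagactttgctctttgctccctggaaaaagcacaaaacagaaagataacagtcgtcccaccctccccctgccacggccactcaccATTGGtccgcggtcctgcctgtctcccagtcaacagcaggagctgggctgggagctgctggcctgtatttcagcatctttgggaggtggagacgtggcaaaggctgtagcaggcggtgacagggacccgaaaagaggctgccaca

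Both strands of each window were searched for 6 motifs. The full cAMP response element TGACGTCA is in none of the 3 windows and in 1.79% of all windows. Its core TGACG, which lies within the full element, occurs once in the second Creb3l3 window, starting at base 12, and in 20.8% of all windows. CCAAT occurs once in the Ppp1r14c window, starting at base 139. It also occurs once on the reverse strand of the second Creb3l3 window, starting at base 156, where it reads ATTGG. Of all windows 37.4% hold CCAAT. The E-box CACGTG (7.15% of all windows), the TATA box TATAAA (13.6%) and the GC box GGGCGG (35.7%) are in none of the 3. No searched motif is common to Ppp1r14c and the first Creb3l3 window, and CCAAT is in both the Ppp1r14c and the second Creb3l3 window.

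Ppp1r14c was brighter in the gastric channel in every mouse, and its fluorescence in the pancreatico-duodenal channel was highest in mouse 2. On probe A_51_P239386 the scanned mean intensity in the gastric channel was 347, 355, 668 and 681 in mice 1 to 4, over a local background of 40.5 to 45.5. In the pancreatico-duodenal channel it was 59.8, 171, 127 and 114, over a background of 18 to 22. The gastric spot was well above background in 4 of 4 mice and the pancreatico-duodenal spot in 3 of 4, the exception being mouse 1. After background correction and loess the log2 ratio was 1.54, 0.24, 1.64 and 1.51. Mouse 2 was the lowest. The value of mouse 1 rests on the spot not well above background, and correction with an offset of 50 pulls such a ratio toward 0. The mean was 1.23 ± 0.66 (SD, n = 4), a 2.35-fold higher level in the gastric node. Without mouse 2 it was 1.56 ± 0.07 (SD, n = 3), against 2.64 ± 0.82 with the scanner software's ratio. Mice 1, 3 and 4 thus lay close together in the former and not in the latter.

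Creb3l3 followed the same order of channels with smaller ratios. On probe A_51_P518001 the scanned mean intensity in the gastric channel was 274, 249, 521 and 503 in mice 1 to 4, over a background of 39 to 42. In the pancreatico-duodenal channel it was 67.9, 133, 120 and 103, over a background of 16 to 24. Both spots were well above background in all 4 mice. The log2 ratio was 1.13, 0.19, 1.43 and 1.24, with mouse 2 again the lowest. The mean was 1.00 ± 0.55 (SD, n = 4), a 2.00-fold higher level in the gastric node, and without mouse 2 it was 1.26 ± 0.15 (SD, n = 3).

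By level, mouse 2 differed from mice 3 and 4 mainly in the gastric channel and from mouse 1 mainly in the pancreatico-duodenal channel. Each channel's log2 level is given here relative to the median of that channel on its array. For Ppp1r14c the gastric level was -0.38, -0.32, 0.95 and 0.65 in mice 1 to 4, and the pancreatico-duodenal level was -1.81, -0.55, -0.72 and -0.88. For Creb3l3 the gastric level was -0.69, -0.78, 0.62 and 0.25, and the pancreatico-duodenal level was -1.71, -0.96, -0.84 and -1.0. In the gastric channel both genes were higher in mice 3 and 4 than in mice 1 and 2. In the pancreatico-duodenal channel both genes were lowest in mouse 1, and mice 2, 3 and 4 lay close together. Mouse 1 thus had a large ratio with low levels in both nodes, mice 3 and 4 had a large ratio with a high gastric level, and mouse 2 had a low gastric level beside a pancreatico-duodenal level near that of mice 3 and 4. The 4 gastric levels did not overlap the 4 pancreatico-duodenal levels for either gene. Both genes were picked for higher gastric levels, and the share of all features without overlap was not counted. The gap between the groups was narrow, from -0.55 to -0.38 for Ppp1r14c and from -0.84 to -0.78 for Creb3l3.

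**Figure D1:**
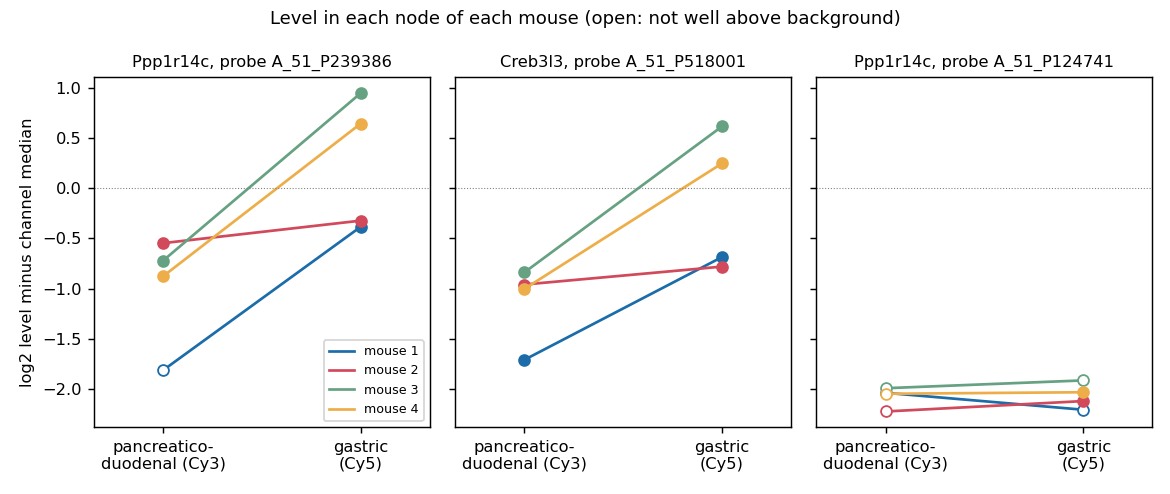
Level of the 3 probes in the pancreatico-duodenal (Cy3) and gastric (Cy5) node of each mouse, as log2 level minus the median of that channel on that array; each line joins the nodes of 1 mouse, and open circles are spots not well above background. Mice 1, 3 and 4 rise steeply for Ppp1r14c on A_51_P239386 and for Creb3l3, mouse 2 is nearly flat, and probe A_51_P124741 is flat in all 4 mice.

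The other Ppp1r14c probe did not show the difference. On A_51_P124741 the scanned intensity was 64.8 to 75.9 in the gastric channel and 56.5 to 58.4 in the pancreatico-duodenal channel. It was well above background in 2 of 4 gastric and 0 of 4 pancreatico-duodenal spots and did not pass the filter. Its log2 ratio was -0.06, 0.12, 0.05 and -0.00 in mice 1 to 4, with a mean of 0.03 ± 0.08 (SD, n = 4). The Ppp1r14c difference thus rests on probe A_51_P239386, and Creb3l3 has 1 probe with 1 spot per array. With both Ppp1r14c probes averaged, the dim one included, the mean was 0.63 ± 0.30 (SD, n = 4), an average chosen after seeing the data.

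The scanner software's own ratios, deposited by the authors, also had mouse 2 lowest for both genes, while the order of the other mice differed. For Ppp1r14c on A_51_P239386 they were 3.59, 0.33, 2.21 and 2.13 on the log2 scale in mice 1 to 4, with software error estimates of 0.41, 0.21, 0.29 and 0.28. For Creb3l3 they were 2.02, 0.25, 1.93 and 1.90, with error estimates of 0.30, 0.21, 0.27 and 0.27. For Creb3l3 the ratios of mice 1, 3 and 4 differed by less than their error estimates, whereas for Ppp1r14c mouse 1 lay above mice 3 and 4 by more than its error estimate. That spot is the one not well above background in the pancreatico-duodenal channel. The means were 2.06 ± 1.34 for Ppp1r14c, or 4.18-fold, and 1.52 ± 0.85 for Creb3l3, or 2.88-fold (SD, n = 4 each).

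Mouse 2 had the lowest ratio of both genes under each of the 7 ways of processing the arrays, which varied the background correction, the normalization and the use of the software's ratio. The mean Ppp1r14c ratio ran from 1.23 to 2.06. Its ratio in mouse 2 ran from 0.24 to 0.52, and in the other mice from 1.3 to 3.59. The mean Creb3l3 ratio ran from 1.00 to 1.52, its ratio in mouse 2 from 0.19 to 0.39, and in the other mice from 0.96 to 2.02. All ratios of both genes in all 4 mice stayed above 0.

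**Figure D2:**
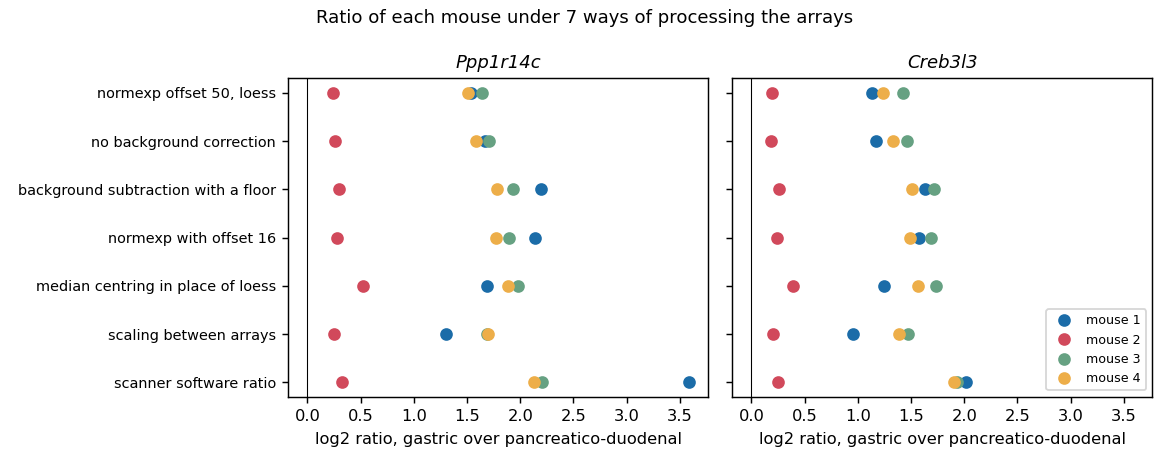
Log2 ratio of Ppp1r14c (left) and Creb3l3 (right) in each of the 4 mice under 7 ways of processing; each point is 1 mouse and the vertical line is a ratio of 0. Mouse 2 lies at 0.52 or below in every row, apart from the other mice, and mouse 1 of Ppp1r14c moves most, from 1.3 to 3.59.

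The ratios can be set against all features of the same array, as a description, since both genes were picked on these ratios. Among 21321 features Ppp1r14c ranked 23, 2112, 11 and 9 from the highest in mice 1 to 4, and Creb3l3 ranked 173, 3221, 13 and 13. The rank of 23 rests on the Ppp1r14c spot not well above background. In mouse 2 both genes lay below the array's 95th percentile of 0.31. In mice 1, 3 and 4 they lay above the 95th percentiles of 0.69, 0.30 and 0.26. The array of mouse 2 did not have the smallest spread of ratios, with an SD over all features of 0.32, 0.23, 0.34 and 0.21 in mice 1 to 4. Features as bright as the pair mostly had small ratios. The 3318 features within 0.5 log2 units of the mean intensity of Ppp1r14c had a median mean ratio of 0.04 and a 95th percentile of 0.33. Both Ppp1r14c and Creb3l3 lie in this window, and with both left out the highest mean ratio was 0.89. For Creb3l3 the 3524 such features, again with both genes among them, had a median of 0.04 and a 95th percentile of 0.30. With both left out the highest was 0.92.

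**Figure D3:**
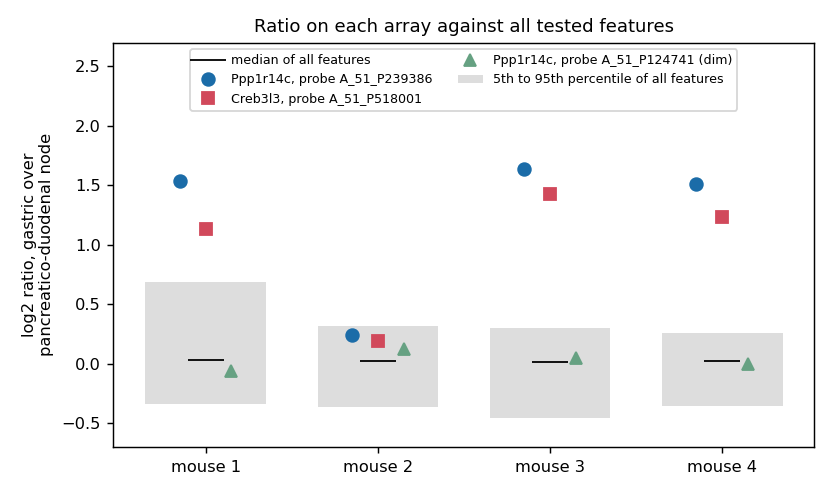
Log2 ratio of the 3 probes on each array (symbols, 1 spot each) over the 5th to 95th percentile of all 21321 features (grey) and their median (black line). Ppp1r14c on A_51_P239386 and Creb3l3 lie far above the grey band in mice 1, 3 and 4 and inside it in mouse 2, and the dim Ppp1r14c probe lies inside it on all 4 arrays.

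Few features were high in the same 3 mice, a count in which Ppp1r14c and Creb3l3 stand by choice, having been picked for this pattern. Of 21321 features, 12 had a log2 ratio of at least 0.5 in mice 1, 3 and 4, and in 7 of those mouse 2 was the lowest. In 5 features the ratio in mouse 2 was also under 50% of the next lowest ratio: Ppp1r14c, Creb3l3, Hba-a1, which encodes an alpha chain of hemoglobin, and a pair of transcripts without a symbol. Hba-a1, named after its values were seen, had ratios of 2.20, 0.15, 0.52 and 2.98 in mice 1 to 4, so unlike Ppp1r14c and Creb3l3 it was near its lowest in mouse 3 too. A transcript without a symbol had 2.34, 0.25, 0.53 and 3.03, likewise low in mouse 3. The other had 0.55, 0.23, 1.04 and 0.86, the same shape as Ppp1r14c and Creb3l3 with smaller ratios in mice 1, 3 and 4.

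Likeness of pattern was measured as the root mean square difference of log2 ratios over the 4 arrays. Ppp1r14c and Creb3l3 were 0.27 apart, and each was the feature nearest to the other among 21320. As the pair had been picked for this shared pattern, the value is a description. With the scanner software's ratio Creb3l3 ranked 4 among the features nearest Ppp1r14c, and Ppp1r14c ranked 78 among those nearest Creb3l3. Without mouse 3 these ranks were 3 and 4.

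The next named genes were clearly farther away. For Ppp1r14c they included Il22ra2, a secreted receptor that binds interleukin-22 (difference 0.66), Alas2, the erythroid enzyme that starts heme synthesis (0.76), and Dcaf12l2 (0.83). For Creb3l3 they included Dcaf12l2 (0.61), Rpl12, a protein of the large ribosomal subunit (0.61), and Pcp4, a calmodulin-binding peptide (0.63). Features without a usable symbol, 8 before the last gene of the first series and 7 before the last of the second, lay between them. Il22ra2 had ratios of 1.79, 1.05, 1.07 and 0.67 in mice 1 to 4, with its lowest value in mouse 4. Alas2 had 1.60, 0.02, 0.13 and 1.61, low in mice 2 and 3. Dcaf12l2, Rpl12 and Pcp4 lay between 0.49 and 0.78 in all 4 mice, with no drop in mouse 2. Other probes of Il22ra2 and Dcaf12l2 gave means of 0.42 and -0.00, below the 1.14 and 0.60 of the probes used. None of these named genes shared both the high ratios in mice 1, 3 and 4 and the low ratio in mouse 2.

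**Figure D4:**
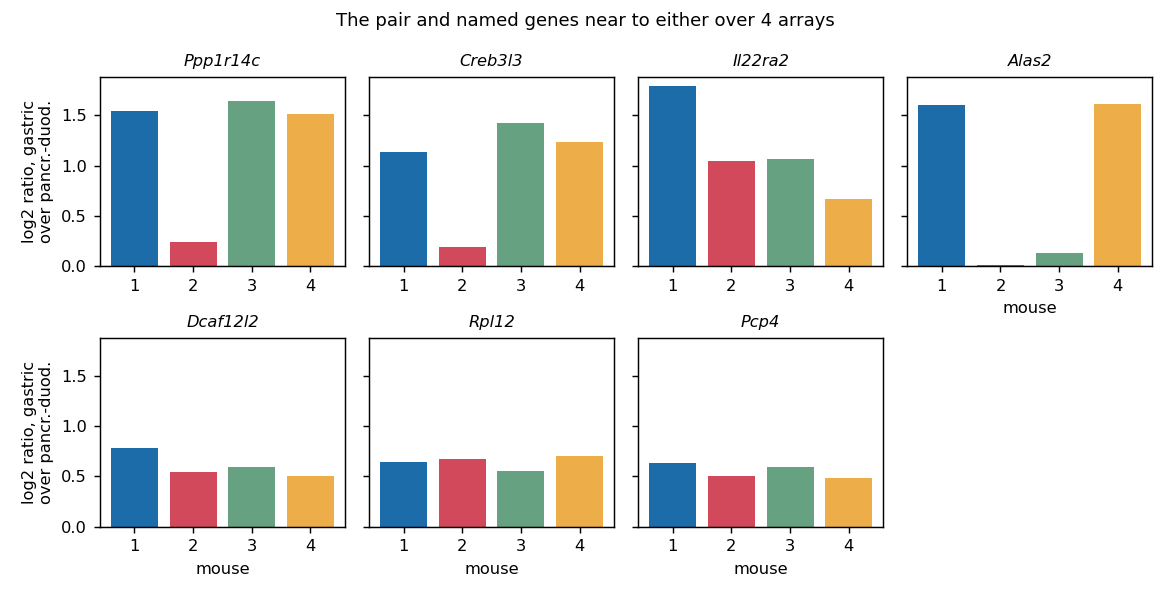
Log2 ratio in each mouse of Ppp1r14c, Creb3l3 and 5 of the named genes nearest to either, 1 bar per array. Ppp1r14c and Creb3l3 are high in mice 1, 3 and 4 and low in mouse 2, Alas2 is low in mice 2 and 3, and Dcaf12l2, Rpl12 and Pcp4 are even across mice.

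Of the relatives and partners of Ppp1r14c 6 passed the test, 5 of them lower in the gastric node. Over all 21321 features, limma's moderated test against 0 called 659 higher (3.09%) and 949 lower (4.45%) at an adjusted p under 0.05, 7.54% in either direction. Of 36 measured genes in 5 lists around protein phosphatase 1, Ppp1r14c left out, 1 was higher (2.78%), 5 were lower (13.9%) and the median log2 ratio was 0.01, against 0.03 for all features. At an unadjusted p under 0.05 there were 16. Without mouse 1 there were 8 calls among the 36, and without mouse 2, 3 or 4 there were 0. When each array was centred on its median instead, all features together had a median of 0.32. Of the 36 genes 25 were then called higher and 1 lower, against 12823 and 2066 of all 21321 features.

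In the PPP1R14 family Ppp1r14a, which encodes the smooth muscle inhibitor CPI-17, was lower in the gastric node, with a mean log2 ratio of -0.32 ± 0.09 (SD, n = 4, adjusted p = 0.0328). With median centring its value was 0.06, which is 0.27 below that setting's median of all features. Ppp1r14b had a mean of -0.22 ± 0.10 and did not pass (adjusted p = 0.0640), and Ppp1r14d was not well above background in either node. Ppp1r14c was therefore the only measured family member with a ratio above 0 under loess. The smooth muscle markers, of which 10 of 10 were measured, had 2 genes lower and 0 higher in the gastric node. Over all features 4.45% were lower and 3.09% higher. The lower ones were Des, desmin, at -0.46 and Smtn, smoothelin, at -0.41, while the brightest, Acta2 at -0.08 and Tagln at -0.22, did not pass. The summed marker level was 17035 to 19310 in the gastric and 18000 to 23112 in the pancreatico-duodenal channel, and its part in the Ppp1r14a ratio was not tested.

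Of the catalytic subunits of protein phosphatase 1, 0 of 3 passed limma's test, and 0 had an unadjusted p under 0.05. Ppp1ca had a mean log2 ratio of -0.12, Ppp1cc one of 0.11 and Ppp1cb one of 0.33 ± 0.37, with mouse 1 at 0.87. Among 8 other inhibitors and regulators of the phosphatase 3 were lower in the gastric node. Ppp1r1a, inhibitor-1, which protein kinase A switches on, was at -0.54 ± 0.18 (adjusted p = 0.0295). Ppp1r15a, also known as GADD34, directs the phosphatase to the translation factor eIF2 alpha under stress and was at -0.53 ± 0.11 (adjusted p = 0.0228). Ppp1r1b, DARPP-32, was at -0.29 ± 0.08 (adjusted p = 0.0363). Of 12 kinases of PPP1R14 proteins 1 was called, Pak1, at -0.60 ± 0.23 (adjusted p = 0.0310), with a further probe at -0.52. Of 11 genes of the myosin phosphatase and its substrates 1 was called, Msn, which encodes moesin, a linker of actin to the cell membrane, at 0.25 ± 0.05 (adjusted p = 0.0381). Further Msn probes gave -0.08 and -0.07, so its higher call rests on 1 probe. With the scanner software's ratio Ppp1r14a and Msn no longer passed, and with median centring Ppp1r14a, Ppp1r1a, Ppp1r15a and Pak1 did not.

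**Figure D5:**
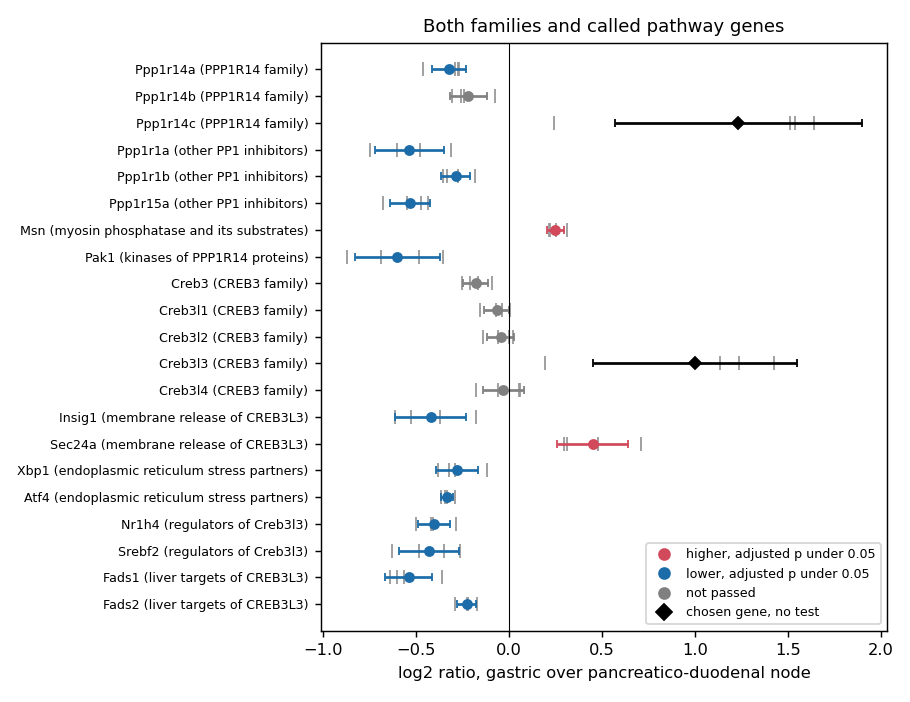
Mean log2 ratio of the members of both families and of called genes in the pathway lists (points, with bars of 1 SD over 4 mice and ticks for single mice), red where called higher, blue where called lower and grey where not passed. Ppp1r14c and Creb3l3 (black, no test) lie at 1.23 and 1.00 with mouse 2 far below the other ticks. Of the other genes drawn Sec24a and Msn lie above 0. Their further probes, not drawn, had means of -0.02 for Sec24a and -0.08 and -0.07 for Msn.

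The CREB3 family held no other gene with a ratio like that of Creb3l3. Creb3 had a mean log2 ratio of -0.18 ± 0.07 (adjusted p = 0.0710) and a further probe at 0.02, Creb3l1 -0.07, Creb3l2 -0.05 and Creb3l4 -0.03. By limma 0 of these 4 transcription factors passed, and 1 had an unadjusted p under 0.05. With median centring Creb3 and Creb3l2 stood above 0, at 0.35 and 0.24, which is 0.02 above and 0.08 below that setting's median of all features. Of 46 measured genes in 5 lists around CREB-H, Creb3l3 left out, 1 was higher (2.17%) and 8 were lower (17.4%), and the median log2 ratio was -0.06. Without mouse 1 there were 10 calls among the 46, and without mouse 2, 3 or 4 there were 0. With median centring 27 of the 46 were called higher and 3 lower, against 12823 and 2066 of all 21321 features.

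Of 9 listed genes of the retention, degradation, transport and cleavage of such membrane-bound factors 8 were measured, while Mbtps2, the site-2 protease, was not well above background in either node. Insig1, which keeps sterol sensors in the endoplasmic reticulum, was lower at -0.42 ± 0.19 (adjusted p = 0.0424). Sec24a, a coat protein of the vesicles that leave the endoplasmic reticulum, was higher at 0.45 ± 0.19 (adjusted p = 0.0395), with a further probe at -0.02. Of 12 partners in the stress response of the endoplasmic reticulum 2 were lower, and none was higher. Atf4, the transcription factor translated when eIF2 alpha is phosphorylated, was at -0.34 ± 0.03 (adjusted p = 0.0254), and Xbp1, the factor activated by splicing, at -0.28 ± 0.11 (adjusted p = 0.0474). With median centring Atf4 and Xbp1 turned to 0.15 and 0.26 and were called higher, while staying 0.17 and 0.06 below the median of all features. Xbp1 is also a plasma cell marker. Of the 9 measured plasma cell markers 2 were lower in the gastric node, Xbp1 itself and Tnfrsf17, the receptor BCMA, at -0.33, against 4.45% of all features. The other 7 did not pass, so Tnfrsf17 was the only further marker called. The list had medians of 0.04, -0.10, -0.29 and -0.29 in mice 1 to 4, and the part of plasma cells in the Xbp1 ratio was not tested.

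Of 7 regulators of Creb3l3 2 were lower. Nr1h4, the bile acid receptor FXR, was at -0.41 ± 0.09 (adjusted p = 0.0254). Srebf2, the main activator of cholesterol synthesis, was at -0.43 ± 0.16 (adjusted p = 0.0333), with a further probe at -0.04. Of 22 listed liver targets of CREB-H 15 were measured, and 3 of these were lower and none higher. Among them Fads1 and Fads2, desaturases of polyunsaturated fatty acid synthesis, were at -0.54 ± 0.12 (adjusted p = 0.0245) and -0.23 ± 0.05 (adjusted p = 0.0431). With median centring Srebf2 and Fads2 turned to 0.04 and 0.10, which is 0.28 and 0.23 below the median of all features. The targets Crp, Apoa1 and Apoc3 were not well above background in either node on any array. With the scanner software's ratio 3 genes of the 46 were higher and 4 lower: Atf4, Xbp1, Srebf2 and Fads2 no longer passed, while Hamp, which encodes the iron hormone hepcidin, and Ppargc1a, a coactivator of mitochondrial genes, were called higher. Hamp was well above background in 2 of 4 and Ppargc1a in 0 of 4 pancreatico-duodenal spots. With median centring Insig1, Srebf2, Fads1 and Fads2 did not pass.

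Markers of tissues that express Creb3l3 or adjoin the nodes were checked for the same pattern. Of 12 liver markers on the array 5 were measured, and Alb, Apoa2, Apob, Apoh, Ttr and Fga, which define hepatocytes, were not well above background in either node on any array. The median ratio of the 5 was 0.07, 0.03, 0.08 and 0.09 in mice 1 to 4, and their summed level was 858 to 1782 in the gastric and 1269 to 2310 in the pancreatico-duodenal channel. Of 12 small intestine markers 8 were measured, with medians of -0.03, 0.03, 0.01 and -0.02 and sums of 2529 to 3950 against 2445 to 2826. Cdx2 and Slc15a1 were not well above background on any array, and the brightest, Fabp1 and Lgals4, had mean ratios of 0.46 ± 0.51 and -0.07. Of 11 stomach markers 6 were measured, with medians of -0.02, 0.02, 0.05 and 0.11 and sums of 752 to 897 against 733 to 3226. Among them Tff2, named after its values were seen, had a ratio of -3.21 in mouse 3, where the exocrine pancreas markers had a median of -4.75. The other measured stomach markers lay between -0.24 and 0.24 in every mouse. Gkn1, Gkn2, Pgc and Cblif were not well above background on any array.

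Markers of immune cells differed between the nodes in several lists. Over all features 3.09% were called higher and 4.45% lower. Of 11 T cell markers 2 were higher and none lower, with median ratios of -0.06, 0.16, 0.13 and 0.32 in mice 1 to 4. Of 12 measured macrophage and monocyte markers 7 were lower and 1 was higher in the gastric node, with median ratios of -0.27, -0.78, -1.14 and -0.71 in mice 1 to 4 and sums of 49350 to 89920 in the gastric and 98030 to 136590 in the pancreatico-duodenal channel. Of 8 dendritic cell markers 4 were lower and none higher, with medians of -0.32, -0.33, -0.58 and -0.29 and sums of 11639 to 16071 against 14993 to 20666. Of 12 markers of natural killer and cytotoxic cells 3 were higher and none lower, with medians of -0.06, 0.20, 0.24 and 0.12 and sums of 6004 to 7679 against 4988 to 5817. These shifts accompanied the lower calls in the lists around Ppp1r14c and Creb3l3, and their part in them was not tested.

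Other lists varied widely between mice. Exocrine pancreas markers, 16 of 17 measured, had median ratios of -0.33, 0.22, -4.75 and 0.85 in mice 1 to 4, with sums of 13123 to 76241 in the gastric and 7617 to 2315470 in the pancreatico-duodenal channel. Adipocyte markers, 9 of 10 measured, had medians of 1.68, -1.58, 0.36 and -1.49, with sums of 4237 to 39311 against 4816 to 43443. Of 17 marker lists, 0 had a median of at least 0.5 in mice 1, 3 and 4, the mice in which Ppp1r14c and Creb3l3 were high. The part of these cell types in the ratios of Ppp1r14c and Creb3l3 was not tested.

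Genes beside Ppp1r14c and Creb3l3 on chromosome 10 had small ratios. Of 10 named neighbours 7 were measured. Limma called 0 of them, against 7.54% of all features, and 2 had an unadjusted p under 0.05. With 7 genes, 0 calls cannot be told apart from that share. Beside Ppp1r14c the one measured was Mthfd1l, a mitochondrial enzyme of folate metabolism, at 0.03 (adjusted p = 0.735), whereas Iyd and Plekhg1 did not pass the filter. Beside Creb3l3 the 6 measured were Thop1, Sgta, Slc39a3, Map2k2, Zbtb7a and Pias4, from -0.24 for Zbtb7a, whose further probe was at 0.19, to -0.05 for Sgta, with the smallest adjusted p, 0.111, for Thop1. With median centring, where the median of all features stood at 0.32, 4 of the 7 were called higher, as were 12823 of all 21321 features. No measured neighbour had a ratio near those of Ppp1r14c and Creb3l3.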

How the data were processed

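Ppp1r14c, Creb3l3 and the gene lists were chosen with earlier results of these data known. The deposited scanner files hold mean, background and processed intensity per channel for 45018 spots and a log10 ratio of Cy5 over Cy3, made with Agilent Feature Extraction 10.2.1.3 per the file headers. Log2 values make up the authors' deposited series table. They equalled the log2 ratio of the processed signals within 5.11e-05, and their column medians were -0.15, -0.06, -0.03 and -0.03 in mice 1 to 4, so scale, centring and direction were known.

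Mean intensities were corrected with normexp and normalized by loess within each array in limma 3.58.1 (R 4.3.3, data.table version 1.17.8). The normexp offset of 50 pulls ratios of dim spots toward 0. Spots of a probe were averaged, and 27603 of 41174 probes passed a filter that asked for a spot well above background on 3 or more of the 4 arrays, in 1 channel throughout. Transcript accessions were matched to RefSeq symbols (assembly GRCm38.p6, used for names, neighbours and promoter windows; the array annotation is on mm9), which named 24844 probes. The brightest kept probe stood for a gene, giving 21321 features, 13401 with a symbol. Mean log2 ratios over the 4 mice, each a biological replicate, were tested against 0 with lmFit and eBayes across all features, adjusted by Benjamini-Hochberg at 0.05. With 4 arrays the number of mice limits the precision. The steps were tested on simulated intensities.

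Named genes were all members of both families, called members of each pathway list (up to 4, or the 2 brightest where none was called), measured chromosome neighbours, the 5 named features nearest each gene and up to 2 bright markers of 4 tissues. Ppp1cb, Mbtps2, Hamp, Ppargc1a, Des, Smtn and Tnfrsf17 were named after their values were seen. Alternatives covered the background correction, normalization, filter, probe choice, variance model, threshold, pairing, the series table and leaving out each mouse. Both nodes of a mouse share an array, so the ratio pairs them. Probe sequences were not used here, and some genes that the rule selects are not reported here.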

Additional observations from a re-analysis of the deposited data

Results flagged for a closer look

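Of 95 ratios checked, 5 had 1 mouse far from the other 3 by Dixon's test, and chance alone sets apart about 1 in 20. Ppp1r14c and Creb3l3, picked for such a pattern, were left out. Ppp1r14a, the relative of Ppp1r14c, mean -0.32, had mouse 1 lowest at -0.46, on the same side of 0 as the other mice. Rock2, a kinase of the PPP1R14 proteins, mean 0.20, had mouse 1 at 0.62 and the others between 0.04 and 0.07. Ppp1r12b, a myosin phosphatase subunit, mean 0.040, had mouse 3 lowest at -0.11. Dnajb9, a chaperone cofactor of the endoplasmic reticulum, mean 0.68, had mouse 4 at 2.77, while its further probes had means of -0.03 and 0.05. Lpl, lipoprotein lipase, mean -0.23, had mouse 1 at 1.59 and the others between -0.87 and -0.76, on the array where the median of the adipocyte markers was 1.68.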

How the results depend on the processing

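With median centring 12823 features were higher and 2066 lower, against 659 and 949, and 26 genes around Ppp1r14c, 30 around Creb3l3 and 4 neighbours were called, against 6, 9 and 0. Scaling between arrays gave 1071 higher features, and the software's ratio and the series table gave 583 and 584 lower ones. At an adjusted p under 0.1 there were 2151 higher and 2055 lower features and 11 calls around Ppp1r14c. A limma variance trend left 0 higher and 0 lower features, 3751 and 2961 having an unadjusted p under 0.05, and 0 calls around either gene, with 16 and 15 at that unadjusted level. Without the pairing of the nodes of a mouse (no replicate block) 1 feature was higher and 5 were lower, with 0 calls around either gene and 10 and 7 unadjusted. Leaving out each mouse gave 0 to 844 higher and 0 to 1323 lower features: the most without mouse 1, and 0 and 0, 0 and 3, and 0 and 1 without mice 2, 3 and 4, where 2154, 3195 and 2305 higher and 2189, 2537 and 1993 lower features had an unadjusted p under 0.05. Calls around Ppp1r14c then ran from 0 to 8 and around Creb3l3 from 0 to 10. Where these were 0, 11 to 14 and 11 to 14 genes had an unadjusted p under 0.05. The mean Ppp1r14c ratio ran from 1.10 to 1.56 with a mouse left out, and was 2.06 with the software's ratio and 2.06 with the series table; Creb3l3 ran from 0.85 to 1.26. The causes were not tested. No neighbour was called with a mouse left out, where 0 to 2 had an unadjusted p under 0.05 by limma. Signal over background limits Ppp1r14c in the pancreatico-duodenal node of mouse 1, where its ratio ran from 1.3 to 3.59 across settings.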
